A study of Homo sapiens with 20 samples.

Results

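The AP-1 family is a group of basic leucine zipper (bZIP) transcription factors whose members work as pairs. The genes described here are JUN, JUNB and JUND, FOS, FOSB, FOSL1 and FOSL2, and ATF3 and BATF, taken as a list by name. They are 9 of the 19775 genes that the array measured, with 21 probe sets between them. Of the 9, 8 passed the filter on low values, which asked for a log2 intensity of at least 5 on at least 2 arrays, and FOSL1 did not. The genes were selected on their NBD minus control differences in these data as well as by name, so those differences are given as a description with their standard errors (SE) and without p-values.

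Transcripts were measured on Affymetrix arrays in 5 established lines of human T-ALL (T cell acute lymphoblastic leukaemia), namely KOPT-K, T-ALL1, HPB-ALL, DND41 and CEM. Cells were exposed for 16 h to the NBD (NEMO-binding domain) peptide or to a control peptide, and 2 arrays were run for each line and peptide, 20 in 10 groups. According to the labels, the NBD peptide prevents NEMO (IKKγ) from binding the kinases IKKα and IKKβ and so blocks canonical NF-kB signalling. The labels give its dose as 100 µM in one place and 100 mM in another, and nothing here rests on the dose. Each line is 1 established leukaemia culture, and all groups, controls included, received a peptide. Whether the 2 arrays within a group are separate cultures is not stated in the labels, so the SEs and p-values reflect how much these arrays vary, and that variation may be technical.

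JUN proteins pair with themselves or with FOS proteins, and the pairs bind the AP-1 element TGAGTCA or the related cyclic AMP response element TGACGTCA. FOS proteins cannot pair with each other and need a JUN partner. JUN, FOS and ATF3 are immediate-early or stress genes whose transcription responds within minutes to mitogens, cytokines and stress through MAP kinases, and in T cells AP-1 acts with NFAT and NF-kB at cytokine genes.

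The following stretches before the start sites of JUN, ATF3, JUND and FOS are shown because these 4 genes of the family had the largest average differences with NBD. They come from RefSeq on assembly GRCh38.p14, read 5′ to 3′ on the strand of the gene, with capitals for the motif matches named in the next paragraph.

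JUN, chr1:58784078-58784237, minus strand: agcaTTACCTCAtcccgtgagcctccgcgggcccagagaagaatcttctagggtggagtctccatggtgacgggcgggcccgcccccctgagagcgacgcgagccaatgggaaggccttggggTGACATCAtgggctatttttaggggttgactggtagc
ATF3, chr1:212565254-212565323, plus strand: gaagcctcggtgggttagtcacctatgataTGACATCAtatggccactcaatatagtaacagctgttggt
JUND, chr19:18281783-18281852, minus strand: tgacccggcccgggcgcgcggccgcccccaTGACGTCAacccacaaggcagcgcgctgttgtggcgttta
FOS, chr14:75278733-75278802, plus strand: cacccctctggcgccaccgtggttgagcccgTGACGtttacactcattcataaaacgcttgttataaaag

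In JUN the capitals mark TTACCTCA, which starts 186 bases before the gene's start, and TGACATCA, which starts 67 bases before it. ATF3 has the same letters TGACATCA 123 bases before its start, in 1 of its 2 listed promoters. JUND has the full cyclic AMP response element TGACGTCA at 200 bases, and FOS the shorter core TGACG at 64 bases, which TGACGTCA also contains. Left in lower case are a TGACG in JUN 123 bases before its start and a TATAAA in FOS 33 bases before its start, which was found in 10.7% of all promoters. All motifs were searched on both strands, only in the 250 bases before each start. TGACATCA was found there in 2.37% of 35116 promoters of 27305 genes, TTACCTCA in 0.644%, TGACGTCA in 1.65% and TGACG in 21.2%. Within these 250 bases TGAGTCA was found in 4.2% of all promoters and in none of those listed for these genes. Of the 9 genes, 8 had an entry in the promoter table. A match here is a description of the letters only.

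The columns of the deposited table came in 2 forms, 1 for CEM, DND41 and HPB-ALL and 1 for KOPT-K and T-ALL1, which may be 2 normalization runs, so levels were tested only within a form and are otherwise set side by side. Both peptides of a line have the same form. Actin signal at the 3′ end minus that at the 5′ end, which grows as RNA degrades, was 2.05 and 3.16 (log2) on the control arrays of T-ALL1 against a mean of 1.03 with NBD in that line. The other groups had means of 0.85 to 1.76, and in CEM it was higher with NBD (1.45 and 1.76). In T-ALL1 both control arrays had a larger actin difference than both NBD arrays. Peptide and RNA quality therefore cannot be told apart in that line. The part of the actin difference in the results was examined only as a covariate, and covariate values for T-ALL1 are not corrected values. With the covariate the genes called in T-ALL1 (limma adjusted p under 0.05) went from 158 higher and 317 lower to 30 and 19. All 12 T cell markers had a probe set, and 9 were at or above the filter value on all 20 arrays. The log2 of their mean intensity was 10.16 to 11.50 with control and 9.84 to 11.28 with NBD. Of 8 myeloid markers 6 were below the filter value on every array (log2 of the mean intensity 4.17 to 4.62 and 4.21 to 4.70), as were 3 of 8 fibroblast and epithelial markers (5.02 to 5.60 and 5.08 to 5.61) and 2 of the 6 B cell markers with a probe set. The log2 of the mean B cell marker intensity was 4.57 to 9.03 and 4.73 to 7.97, and CD79A, a B cell receptor subunit, reached 11.46. The part of these markers in the results was not tested. The RNA came from whole cultures, so fewer cells with a transcript and less of it per cell cannot be told apart.

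JUN, a core activating subunit of AP-1, stood higher with the NBD peptide in every line, and by far the most in KOPT-K, where its control level was the lowest of the 5. With control peptide the log2 intensities of its probe set 201464_x_at were 6.83 and 6.72 in KOPT-K, and with NBD they were 10.19 and 10.07. The NBD arrays of KOPT-K lay 3.35 ± 0.09 (SE) above its control arrays, which is 10.2-fold. In T-ALL1 the control arrays read 8.41 and 8.10 and the NBD arrays 9.38 and 9.34, a difference of 1.11 (2.15-fold). Here the control arrays were also those with the largest actin difference, so peptide and RNA quality cannot be told apart. With the actin difference as a covariate the value was 1.44, which is not a corrected estimate.

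The other lines began near the top of the range and moved less. CEM read 11.19 and 11.27 with control and 12.21 and 12.21 with NBD, a difference of 0.97 (1.96-fold). DND41 went from 11.17 and 11.16 to 11.77 and 11.88, a difference of 0.66 (1.58-fold). HPB-ALL went from 10.77 and 10.79 to 11.35 and 11.37, a difference of 0.58 (1.5-fold). In none of the 5 lines did an NBD array overlap a control array. The spread of the line means on this probe set narrowed from 4.46 with control to 2.85 with NBD on the log2 scale, across both column forms. It narrowed less on the others, from 2.998 to 2.781 on 201465_s_at, 4.657 to 3.265 on 201466_s_at and 2.422 to 2.082 on 213281_at.

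Over the 5 lines the average JUN difference was 1.33 ± 0.04 (SE, 2 arrays per group; 2.52-fold), with an SD of 1.15 between the lines (n = 5). Without KOPT-K it was 0.83 (1.78-fold). Ordered by difference among the 13787 genes tested, JUN came at place 1 in KOPT-K, 4 in T-ALL1, 12 in CEM, 19 in HPB-ALL and 25 in DND41. Probe sets with the suffix _x_at can share probes with other sequences, so the other JUN probe sets matter. They gave averages of 1.35 ± 0.06 (201465_s_at), 1.35 ± 0.08 (201466_s_at) and 0.88 ± 0.05 (213281_at), and all 4 had both NBD arrays above both control arrays in all 5 lines. In the same order, their differences were 2.71, 3.58 and 1.58 in KOPT-K, 1.42, 1.05 and 0.80 in CEM, and 1.08, 1.01 and 1.03 in T-ALL1. Whether CEM or T-ALL1 had the larger difference thus depended on the probe set.

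JUND, a broadly transcribed JUN relative, was also higher with NBD in each line, with much less difference between lines than JUN. Its probe set 203752_s_at read 10.93 and 10.93 in CEM controls and 11.58 and 11.50 with NBD, a difference of 0.62 ± 0.08. In DND41 it read 10.79 and 10.86 against 11.57 and 11.42, a difference of 0.67. HPB-ALL (11.05 and 11.05 against 11.46 and 11.52) and KOPT-K (11.04 and 11.12 against 11.55 and 11.50) both differed by 0.44. KOPT-K, which stood apart for JUN, was in the middle of the lines for JUND.

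T-ALL1 was the low line for JUND. Its arrays read 10.38 and 10.24 with control and 10.43 and 10.55 with NBD, a difference of 0.18, or 0.39 with the actin covariate. The NBD arrays lay above the control arrays in all 5 lines, and the average was 0.47 ± 0.03 (1.38-fold). Of the other probe sets, 203751_x_at gave 0.40 and 214326_x_at 0.51, both at mean levels under the filter value of 5. The fourth, 229117_s_at, at a mean level of 4.78, gave 0.03 ± 0.05.

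JUNB, which can replace or oppose JUN depending on the partner, showed small differences. Its line differences ran from 0.18 in CEM to 0.28 in KOPT-K, with an average of 0.21 ± 0.07 (1.15-fold). The SE in each line was 0.16. Leaving out 1 array moved the value to between 0.02 and 0.54 in KOPT-K, 0.03 and 0.36 in DND41 and 0.05 and 0.37 in HPB-ALL, and the actin covariate gave 0.36 in T-ALL1 and 0.14 in CEM. In CEM the arrays were 7.68 and 7.65 with control and 7.84 and 7.85 with NBD, and in T-ALL1 they were 6.72 and 6.67 against 6.84 and 6.90. Only in these lines did the peptides not overlap. In KOPT-K (7.27 and 7.12 against 7.73 and 7.21), DND41 (8.35 and 8.67 against 8.86 and 8.54) and HPB-ALL (7.01 and 6.89 against 7.0 and 7.32) they overlapped.

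**Figure D1:**
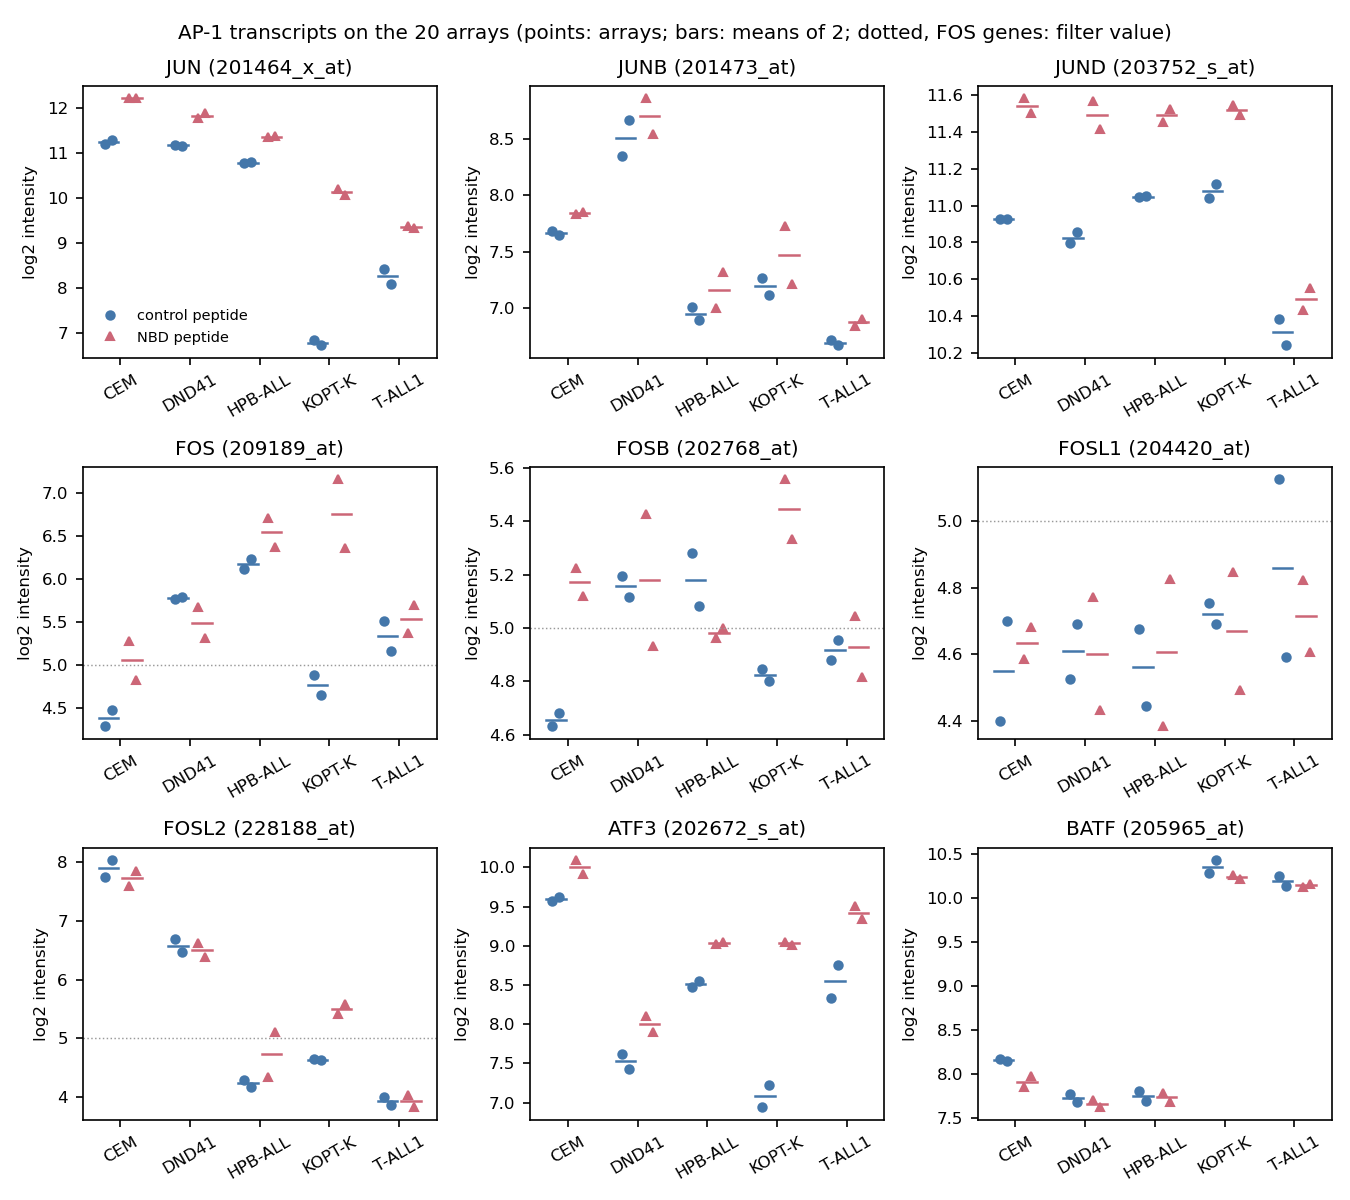
Log2 intensity (vertical axes, scaled separately for each gene) of 1 probe set for each of the 9 AP-1 genes in the 5 lines; points are single arrays (circles control peptide, triangles NBD peptide), short bars the means of 2 arrays, and the dotted line in the FOS genes the filter value of 5. JUN, JUND and ATF3 triangles lie above the circles in every line, the JUN gap is widest in KOPT-K (6.78 to 10.13), and FOSL1 stays near 5 or below.

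FOS, the founding partner of JUN and a short-lived immediate-early transcript, was higher with NBD mainly in KOPT-K and did not move the same way in all lines. Its 1 probe set read 4.89 and 4.66 in KOPT-K controls and 7.16 and 6.36 with NBD, a difference of 1.98 ± 0.24 (3.95-fold). Leaving out 1 array moved this value to between 1.58 and 2.38. The KOPT-K controls were under the filter value, so the size of the difference is uncertain. CEM controls were also under the filter value. The CEM arrays read 4.29 and 4.49 with control and 5.29 and 4.83 with NBD, a difference of 0.67.

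The remaining lines gave smaller values of both signs for FOS. HPB-ALL had 6.11 and 6.23 against 6.71 and 6.38, a difference of 0.37. In DND41 the NBD arrays (5.67 and 5.31) lay below the control arrays (5.77 and 5.79), a difference of -0.29. T-ALL1 had 5.51 and 5.16 against 5.37 and 5.70, with overlapping arrays and a difference of 0.20, or 0.63 with the actin covariate. The average of 0.59 ± 0.11 (1.5-fold) was 0.24 without KOPT-K, and 15 of the 20 arrays reached the filter value.

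FOSB, a close relative of FOS with inducible short and long forms, was measured near the filter value, from 4.63 to 5.56 over the 20 arrays. It read 4.85 and 4.80 with control and 5.56 and 5.33 with NBD in KOPT-K, a difference of 0.62 ± 0.13. CEM had 4.63 and 4.68 against 5.22 and 5.12, a difference of 0.52. These are the lines with the largest FOS differences too. In HPB-ALL the NBD arrays (4.96 and 5.0) lay below the control arrays (5.28 and 5.08), a difference of -0.20, and DND41 and T-ALL1 differed by 0.02 and 0.01 with overlapping arrays. The average was 0.20 ± 0.06, and 0.09 without KOPT-K.

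FOSL2, which encodes the FOS-related protein FRA2, varied far more between lines than between peptides. KOPT-K had 4.65 and 4.63 with control and 5.42 and 5.59 with NBD on probe set 228188_at, a difference of 0.86 ± 0.19. Its control arrays were under the filter value, so the size of that difference is uncertain. HPB-ALL had 4.29 and 4.18 against 4.35 and 5.10, a difference of 0.49 carried by the second NBD array. CEM, the line with the highest level, had 7.75 and 8.03 against 7.60 and 7.85, a difference of -0.17 with overlap. DND41 gave -0.07 and T-ALL1 0.00, also with overlap, and the actin covariate gave 0.27 in T-ALL1.

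The average over lines for FOSL2 was 0.23 ± 0.09, or 0.07 without KOPT-K. A second probe set, 225262_at, gave 0.30 ± 0.08, with 0.99 in KOPT-K. The other 3 gave 0.06, 0.05 and -0.02, and in KOPT-K they gave 0.05, 0.08 and -0.01. Every FOSL2 probe set had a KOPT-K control mean under the filter value, and the mean of all probe sets differed by 0.40 in that line. FOSL1, the gene of the FOS-related protein FRA1, read 4.38 to 5.13 and reached the filter value on 1 array of 20, and its average was -0.02 ± 0.09 at that low signal.

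ATF3 is a stress-induced bZIP factor that pairs with JUN proteins and can repress as a pair with itself. Like JUN it was higher with NBD in every line, most in KOPT-K and then in T-ALL1, with smaller differences than JUN. With control peptide KOPT-K again had the lowest level, 6.94 and 7.23 on probe set 202672_s_at, and with NBD it read 9.05 and 9.01, a difference of 1.95 ± 0.14 (3.86-fold). T-ALL1 had 8.34 and 8.76 against 9.51 and 9.33, a difference of 0.87, or 0.54 with the actin covariate. KOPT-K with NBD thus reached the level of HPB-ALL with NBD, 9.03 and 9.05, although the column forms of these lines differ.

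The lines of the other column form differed by less for ATF3. HPB-ALL started from 8.48 and 8.55, a difference of 0.53. DND41 had 7.62 and 7.43 against 8.11 and 7.90, a difference of 0.48, and CEM 9.56 and 9.62 against 10.09 and 9.91, a difference of 0.41. The order of these lines was the reverse of that for JUN, with an SE of 0.14 in each line for ATF3. The NBD arrays were above the control arrays in all 5 lines. The average was 0.85 ± 0.06 (1.80-fold) and 0.57 without KOPT-K. Probe set 1554980_a_at gave 0.72 ± 0.12, with both NBD arrays above in 4 of 5 lines. In CEM its arrays overlapped, with a difference of 0.05. The third, 1554420_at, which never reached the filter value, gave -0.05 ± 0.05.

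BATF, a lymphoid bZIP protein that lacks a transactivation domain and competes with FOS for JUN, was the only gene of the family with a lower mean with NBD in all 5 lines. The differences were small. CEM read 8.17 and 8.14 with control and 7.85 and 7.97 with NBD, a difference of -0.25 ± 0.08. KOPT-K read 10.29 and 10.43 against 10.27 and 10.22, a difference of -0.12. The arrays overlapped in DND41 (-0.07), HPB-ALL (-0.01) and T-ALL1 (-0.05, which turned to 0.19 with the actin covariate; the HPB-ALL value turned to 0.02 with quantile normalization). The average was -0.10 ± 0.03.

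**Figure D2:**
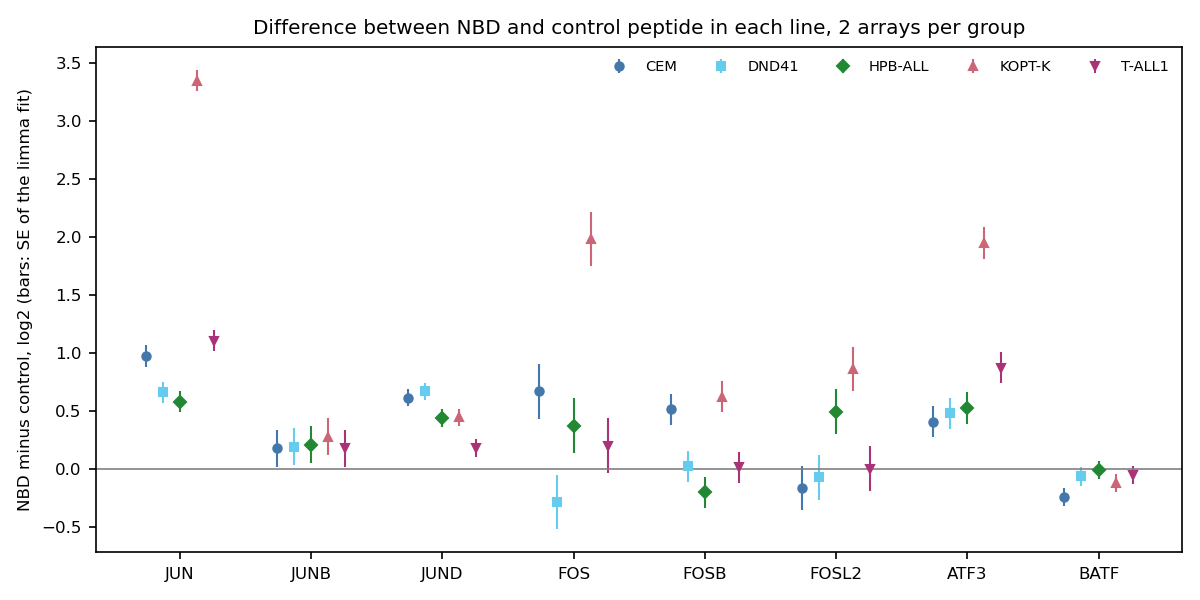
NBD minus control difference (vertical axis, log2) of the 8 AP-1 genes that passed the filter, with 1 symbol per line and bars for the SE of the limma fit, 2 arrays per group. The KOPT-K symbols stand apart for JUN (3.35), FOS (1.98) and ATF3 (1.95), while the JUNB and JUND symbols of the 5 lines lie within 0.18 to 0.28 and 0.18 to 0.67.

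Set beside all genes, 2.24% of the 13787 were called higher in the average (limma, Benjamini-Hochberg adjusted p under 0.05) and 6.14% lower. Of the 8 family genes tested, 4 were called higher, namely JUN, JUND, FOS and ATF3. The genes were chosen with this contrast known, so this count and the counts by line that follow describe the choice, are no test of the family, and have the shares of all genes beside them for scale only. The median average difference was 0.35 for the 8 genes and -0.01 for all genes tested.

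By line, KOPT-K had 6 of the 8 called higher (JUN, JUND, FOS, FOSB, FOSL2 and ATF3) beside 0.892% of all genes, and a median over the 8 of 0.74. CEM, DND41 and HPB-ALL each had 2, JUN and JUND, beside 0.392%, 0.733% and 0.138%, with medians of 0.46, 0.11 and 0.41. T-ALL1 had JUN and ATF3 beside 1.15%, with a median of 0.18. Both NBD arrays lay above both control arrays for 6 of 8 in CEM (21% of all genes), 3 in DND41 (21.6%), 5 in HPB-ALL (20.7%), 6 in KOPT-K (18.9%) and 4 in T-ALL1 (18.7%). JUN, JUND and ATF3 did so in all 5 lines, as did 0.399% of all genes. The mean was higher with NBD in all 5 lines for JUNB as well, so for 4 of 8, beside 4.26% of all genes, and lower in all 5 for BATF, 1 of 8 beside 8.81%. Both NBD arrays lay below both control arrays for BATF in CEM (28.2% of all genes) and KOPT-K (23.6%), FOS in DND41 (27.8%) and FOSB in HPB-ALL (29.1%), and for none of the 8 in T-ALL1 (24%).

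**Figure D3:**
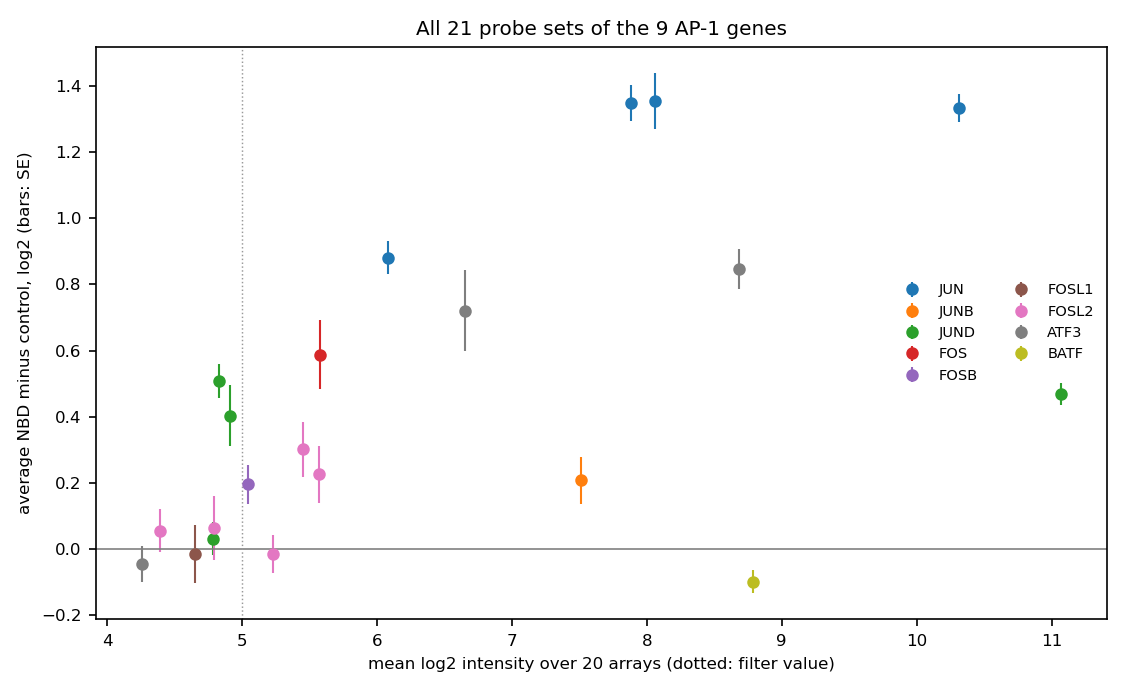
Average NBD minus control difference over the 5 lines (vertical axis, log2, bars SE) against mean log2 intensity over 20 arrays (horizontal axis) for all 21 probe sets of the 9 genes, coloured by gene; the dotted line is the filter value of 5. The 4 JUN probe sets lie at 0.88 to 1.35, while probe sets of JUND, FOSL2 and ATF3 under the dotted line lie between -0.05 and 0.51.

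The control arrays enter the NBD minus control differences on which the genes were chosen. Levels with control peptide are therefore not independent of that choice, and the p-values for them that follow are descriptions and no independent test. Control levels were compared between lines of 1 column form. Many genes differ between these lines, so the share of all genes called is the scale for the family. Between CEM and DND41 6 of 8 family genes differed (limma adjusted p under 0.05), beside 42% of all genes. Between CEM and HPB-ALL it was 7 of 8 beside 49%, between DND41 and HPB-ALL 5 of 8 beside 47.5%, and between T-ALL1 and KOPT-K 5 of 8 beside 54.2%.

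For JUN the order of control levels was CEM (11.23), DND41 (11.16), HPB-ALL (10.78), T-ALL1 (8.25) and KOPT-K (6.78). CEM and DND41 did not differ beyond their spread (0.07 ± 0.09, limma adjusted p = 0.589). DND41 exceeded HPB-ALL by 0.38 (limma adjusted p = 0.00278), and T-ALL1 exceeded KOPT-K by 1.48 ± 0.09 (2.78-fold, limma adjusted p = 6.12e-09). Its probe sets 201466_s_at and 201465_s_at also gave T-ALL1 above KOPT-K, by 1.44 (limma adjusted p = 2.18e-05) and 0.56 (0.00199). On 201466_s_at KOPT-K, at 4.43, was under the filter value, so the size of that difference is uncertain. The probe set 213281_at, under the filter value in both lines, gave 0.10 (limma adjusted p = 0.593).

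ATF3 had its highest control level in CEM (9.59), ahead of T-ALL1 (8.55), HPB-ALL (8.51), DND41 (7.53) and KOPT-K (7.08). CEM exceeded DND41 by 2.07 ± 0.14 (4.19-fold, limma adjusted p = 1.53e-08) and HPB-ALL by 1.08 (limma adjusted p = 1.13e-05). HPB-ALL exceeded DND41 (limma adjusted p = 2.75e-05), and T-ALL1 exceeded KOPT-K by 1.47 (limma adjusted p = 4.3e-07). On the second probe set, 1554980_a_at, CEM also exceeded DND41, by 1.35 (limma adjusted p = 0.00181), but T-ALL1 and KOPT-K differed by 0.39 with an SE of 0.28 (limma adjusted p = 0.343).

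FOSL2 had one of the widest control ranges of the family. CEM, at 7.89, exceeded HPB-ALL, at 4.23, by 3.66 ± 0.19 on the log2 scale (limma adjusted p = 1.38e-09) and DND41, at 6.58, by 1.32 (limma adjusted p = 6.4e-05). HPB-ALL was under the filter value of 5 there, so the size of its difference is uncertain. Its probe set 225262_at gave 3.11 for CEM against HPB-ALL (limma adjusted p = 3.96e-09) and 218880_at gave 1.31 (4.02e-06), while 218881_s_at gave 0.28 (0.137). KOPT-K (4.64) exceeded T-ALL1 (3.93) by 0.71 (limma adjusted p = 0.00594), both under the filter value, a call lost with the actin covariate (adjusted p = 0.0963).

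FOS and FOSB were both lowest in CEM among the lines with control peptide, with both column forms set side by side. For FOS, CEM (4.39) was below DND41 (5.78) by 1.39 ± 0.24 on the log2 scale (limma adjusted p = 0.000254) and below HPB-ALL (6.17; limma adjusted p = 2.02e-05). DND41 and HPB-ALL did not pass as different (limma adjusted p = 0.197), nor did T-ALL1 (5.34) and KOPT-K (4.77), where the difference was 0.56 ± 0.24 (0.0586). That value crossed the threshold without T-ALL1 control array 2 (adjusted p = 0.0453), without either KOPT-K NBD array (0.021) and with quantile normalization (0.0483), while with the actin covariate it was 0.11 (0.912). For FOSB, CEM was below DND41 by 0.50 (limma adjusted p = 0.008) and below HPB-ALL by 0.52 (0.00489), and these calls were lost without control array 1 of DND41 (0.0546) and of HPB-ALL (0.0551) respectively. The other FOSB levels did not pass as different, with -0.02 for DND41 minus HPB-ALL (limma adjusted p = 0.902) and 0.09 for T-ALL1 minus KOPT-K (0.599), all near the filter value.

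JUNB was highest in DND41 (8.51), above CEM (7.67; limma adjusted p = 0.000683) and HPB-ALL (6.95; a difference of 1.56 ± 0.16, limma adjusted p = 1.75e-06). KOPT-K (7.19) was above T-ALL1 (6.69; limma adjusted p = 0.0168), a call lost without T-ALL1 control array 2 (0.0635), without KOPT-K control array 1 (0.107) and with the actin covariate (0.173). JUND had a narrow range, from 11.08 in KOPT-K to 10.31 in T-ALL1, a difference of 0.77 ± 0.08 (1.70-fold, limma adjusted p = 8.66e-07). CEM did not pass as different from DND41 (0.10, adjusted p = 0.316) or HPB-ALL (-0.12, 0.205). HPB-ALL passed above DND41 by 0.23 (0.024), a call lost without DND41 control array 1 (0.137) and without HPB-ALL control array 1 (0.0793) or 2 (0.0897).

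BATF was set apart by column form, at 10.36 in KOPT-K and 10.20 in T-ALL1 against 8.16 in CEM, 7.74 in HPB-ALL and 7.73 in DND41. Line and column form cannot be told apart across these groups. Within the forms CEM exceeded DND41 by 0.43 ± 0.08 (limma adjusted p = 0.000427) and HPB-ALL by 0.41 (0.000496). KOPT-K and T-ALL1 missed the threshold (a difference of -0.16 for T-ALL1 minus KOPT-K, limma adjusted p = 0.0962), which was passed with the actin covariate (-0.42, 0.0411).

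Transcripts with a pattern like that of JUN were ranked by Pearson correlation over the 20 arrays after each line's mean was removed. The peptide differences on which the family was chosen remain after the line means are removed. Values of r between family genes are therefore not independent of that choice. The arrays also share lines and controls, so the values are descriptions, and each is followed by its value over the 16 arrays without KOPT-K. ATF3 came first for JUN (r = 0.958 and 0.873), then TNFAIP3, which encodes the NF-kB inhibitor A20 (0.955 and 0.816). SLC2A3, a glucose transporter gene, followed (0.922 and 0.574), with DUSP10, a phosphatase of stress-activated MAP kinases (0.922 and 0.859), and RND1 (0.921 and 0.797). Within the family JUN gave 0.699 and 0.834 with JUND, 0.875 and 0.519 with FOS, and -0.551 and -0.609 with BATF.

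ATF3 was nearest to TNFAIP3 (r = 0.959 and 0.903) and JUN, then to ATF4, the effector of the integrated stress response (0.948 and 0.927), RND1 (0.931 and 0.834) and PPP1R15A, which encodes GADD34, a regulatory subunit of the phosphatase that reverses this response (0.923 and 0.789). FOS was nearest to SLC2A3 (0.917 and 0.668), CDC25C, a mitotic phosphatase gene (0.908 and 0.577), and GTF2B, a general transcription factor gene (0.901 and 0.702). FDPS, of isoprenoid synthesis (0.888 and 0.741), and GADD45A, a stress-response gene (0.887 and 0.762), followed.

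The rest of the pathway was described by 5 lists named by function. The lists were chosen with earlier results of these data known, so their counts and p-values are no independent test. Of the 92 genes listed, 70 were tested, 6 rose and 1 fell in the average over the 5 lines (limma adjusted p under 0.05), beside 2.24% and 6.14% of all genes, and their median was 0.01 against -0.01 over all genes. The upstream MAP kinases had 0 of 17 called, with 0 at an unadjusted p under 0.05, and all differences between -0.07 and 0.05. The most extreme were MAP2K2, a kinase of ERK (-0.07 ± 0.06, limma adjusted p = 0.54), and MAP3K4, of the stress pathways (0.05 ± 0.03, 0.377).

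Among 12 factors that drive JUN and FOS transcription, such as SRF, ELK1, CREB1 and ATF2, 1 fell and the median was 0.02. This was ATF7, a relative of ATF2 (-0.20 ± 0.05, limma adjusted p = 0.02), lower in all 5 lines. The call was lost with the actin covariate (adjusted p = 0.134), with the mean over its probe sets (-0.07, 0.188), without the HPB-ALL line (0.117) and without NBD array 1 of that line (0.0518). Among 13 regulators of AP-1 protein 0 were called (1 at an unadjusted p under 0.05), with a median of 0.00. ITCH, a ubiquitin ligase for JUN proteins, was 0.30 ± 0.10 (limma adjusted p = 0.101), of which T-ALL1 alone had 0.94. Without T-ALL1 control array 2 ITCH passed at 0.40 (adjusted p = 0.000921), and with the actin covariate it was 0.009. Its other probe sets disagreed in sign, and 239101_at, at a mean level of 5.82, fell by 0.30 with NBD (limma adjusted p = 0.0198). CUL4A, a ubiquitin ligase scaffold, was -0.08 ± 0.06 (limma adjusted p = 0.443).

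Other bZIP partners of AP-1 had 5 of 16 called higher, with a median of 0.04. At an unadjusted limma p under 0.05, 6 were higher and 1 lower. The largest difference in size was a fall, -0.22 for BATF3, which was not called. BACH2, a repressor in lymphocytes, rose by 0.20 ± 0.04 (limma adjusted p = 0.00847), with 0.59 in DND41 and 0.47 in KOPT-K and values of -0.05 to -0.01 in the other lines. DDIT3, the stress factor CHOP, rose by 0.19 ± 0.04 (0.0144), CREM, a cyclic AMP responsive factor, by 0.16 ± 0.04 (0.0205) and CEBPG, a C/EBP protein, by 0.15 ± 0.04 (0.0398). DDIT3 and CREM were higher in all 5 lines and CEBPG in 4. ATF4, named after its values were seen, rose by 0.14 ± 0.03 (limma adjusted p = 0.0115), with 0.38 in KOPT-K. All 5 calls were lost without KOPT-K, where the difference was 0.13 for BACH2 (adjusted p = 0.0998), 0.14 for DDIT3 (0.0581), 0.09 for CREM (0.203), 0.15 for CEBPG (0.0767), as large as with KOPT-K, and 0.08 for ATF4 (0.111). BACH2 was also lost without DND41 (0.10, adjusted p = 0.256), DDIT3 without HPB-ALL (0.114), CREM without NBD array 1 of CEM (0.0509) or of HPB-ALL (0.054), and CEBPG without any 1 of 14 of the 20 arrays. On its other probe sets CREM also rose on 207630_s_at (0.21, adjusted p = 0.0208) and 214508_x_at (0.19, 0.0187), and the second probe sets of BACH2 (0.22, 0.134) and CEBPG (0.13, 0.188) missed the threshold.

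Of 25 AP-1 target genes listed, 12 passed the filter and 1 was called, MT2A, which encodes a metallothionein. It rose by 0.94 ± 0.04 (limma adjusted p = 1.99e-08), with 1.2 in CEM, 0.41 in DND41, 1.58 in HPB-ALL, 1.28 in KOPT-K and 0.26 in T-ALL1. Its lines were thus not ordered as for JUN, and its _x_at probe set can share probes with other metallothionein genes. The median of the 12 was 0.04. Each of the 6 higher and 1 lower calls in these lists was lost when the 5 lines served as replicates.

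**Figure D4:**
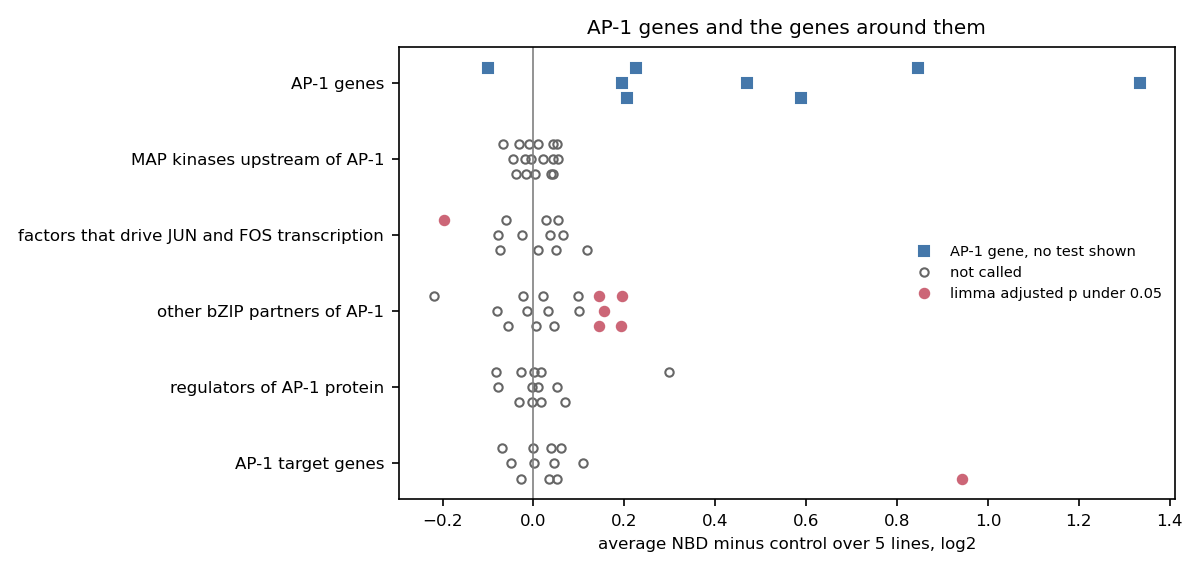
Average NBD minus control difference over the 5 lines (horizontal axis, log2) for the AP-1 genes and the genes of the 5 pathway lists that passed the filter; 1 point is 1 gene, filled red circles were called by limma (adjusted p under 0.05), open circles were not, and blue squares are the AP-1 genes, with no test shown. The MAP kinases lie between -0.07 and 0.05, and MT2A (0.94) stands apart among the target genes.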

How the data were processed

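The authors deposited linear intensities of 54675 probe sets on every array, produced by RMA (robust multi-array average) per the submitters' processing notes, which give no version; the scanner files were not used here. From these intensities log2 values were computed here with no pseudocount. Arrays have no read depth, and their number limits the precision. Of the probe sets, 41097 had 1 gene symbol, 1801 several and 11777 none in the platform table, and 41043 of the first were found in a RefSeq gene table (GRCh38.p14), used for names. For each gene the probe set with the highest mean stood in, and genes at or above the median intensity of 32 (log2 value 5) on at least 2 arrays were kept, 13787 in all.

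limma 3.58.1 in R 4.3.3 fitted 1 mean per group (10 residual and 3.42 prior degrees of freedom), with Benjamini-Hochberg adjustment over all genes tested at 0.05. Probe sets other than the one that represents a gene were fitted and adjusted over all probe sets with 1 gene symbol. Contrasts were NBD minus control per line, their mean, and control levels between lines of 1 column form. The procedure was tested on simulated data. The family members and the lists were chosen with earlier results of these data known, so the members' peptide differences carry no p-value. Named genes are all members and up to 4 called genes per list and direction (or the 2 largest differences where none was called). The 5 genes nearest in pattern to JUN, FOS and ATF3 are also named. ATF4 and BATF3 as list genes were added after their values were seen. The columns of KOPT-K and T-ALL1 hold up to 7 decimals (mean intensity 386.9 to 396.1), the others 2 (341 to 347.7); no source used here states why.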

Additional observations from a re-analysis of the deposited data

Results flagged for a closer look

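FOS had both NBD arrays below both control arrays in DND41 (-0.286 on the log2 scale) and above them in CEM, HPB-ALL and KOPT-K. FOSB had both below in HPB-ALL (-0.2) and both above in CEM and KOPT-K. The JUND probe set 229117_s_at lay below in DND41 (-0.171) and above in HPB-ALL, and the FOSL2 probe set 218880_at lay below in CEM (-0.227) and above in T-ALL1, both at mean levels under the filter value of 5. In these 4 cases lines moved in opposite directions with no overlap between peptides. The differences between lines were not tested, and both arrays lay above in 18.7% to 21.6% and below in 23.6% to 29.1% of all genes in a single line.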

How the results depend on the processing

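Without the replicate block, 309 genes were called higher and 847 lower in the average, and in the pathway lists 6 and 1. With lines as replicates these counts were 0 and 0, and 0 and 0 (limma, lowest adjusted p 0.126), although 1639 genes had an unadjusted p under 0.05, among them 928 of those called before. With the actin covariate 497 were lower and 0 in the lists. Without CEM the counts were 197 and 465, without HPB-ALL 170 and 419 (lists 3 and 0), without KOPT-K 148 higher (lists 1) and without T-ALL1 2 lower in the lists. The mean of all probe sets gave 0 lower in the lists. Of the settings chosen after seeing the data, CEM, DND41 and HPB-ALL alone gave 3 lower in the lists, and KOPT-K and T-ALL1 alone gave 17 and 9 (lists 1 and 0). Leaving out 1 array gave 193 to 701 higher (fewest without HPB-ALL NBD array 1, most without T-ALL1 control array 2), 561 to 1614 lower by the same arrays, and 4 to 8 and 0 to 2 in the lists.

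The average difference of JUN was 1.23 with the mean of all probe sets, 1.424 without CEM, 1.503 without DND41, 1.523 without HPB-ALL and 0.83 without KOPT-K. JUND was 0.353 with the mean of all probe sets and 0.542 without T-ALL1, FOS 0.239 without KOPT-K, and ATF3 0.508 and 0.572 for these settings. CEM, DND41 and HPB-ALL alone gave 0.738 for JUN, 0.575 for JUND, 0.253 for FOS and 0.471 for ATF3, and KOPT-K and T-ALL1 alone gave 2.228, 0.312 and 1.412, with 1.09 for FOS. Genes called higher in single lines ranged over the settings other than leaving out 1 array from 18 to 87 in CEM (54 as reported), 10 to 222 in DND41 (101), 8 to 35 in HPB-ALL (19), 28 to 203 in KOPT-K (123) and 2 to 320 in T-ALL1 (158). Leaving out 1 array gave 21 to 88, 13 to 182, 8 to 34, 40 to 187 and 17 to 1192 in these lines, fewest in T-ALL1 without its NBD array 1 and most without its control array 2, and fewest in DND41 without its control array 1. Counts of family genes that differed in control level stayed within 1.5 times of the reported ones under the 11 planned and added settings that could be run on each contrast. A left-out line also leaves fewer arrays, and the cause of these shifts was not tested.

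With the replicate number as a block, 127 genes were called higher and 324 lower, and 2 and 0 in the lists. The labels do not say that a number marks a shared culture, and deviations of arrays with the same number correlated at -0.281 to 0.143 within the lines, so the numbers were not taken to pair the arrays.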
